A study of Homo sapiens with 12 samples.

Results

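The interferon-stimulated genes examined here were 36 named genes, taken by symbol from a table of read counts for 58735 genes, and all 36 were found in it. They were 26 antiviral effectors, the RNA sensors DDX58, IFIH1 and DHX58, the ubiquitin-like protein ISG15 with its ligase HERC5 and its protease USP18, and the transcription factors STAT2, IRF1, IRF7 and IRF9. The genes are listed for what they are known for, but the list was chosen with earlier results of these data known. RNA was sequenced from C4.2B, a human cell line of castration-resistant prostate cancer that was derived from LNCaP. The 4 treatment arms had 3 libraries each, named A, B and C. Cells received the vehicle DMSO, 0.25 µM ipatasertib, which inhibits AKT (AKTi), 1 µM tazemetostat, which inhibits EZH2 (EZH2i), or both agents together (combination). Cells of the EZH2i and combination arms were kept in tazemetostat for 6 days first, and RNA of every arm was taken 24 hours after dosing in medium with 10% charcoal-stripped FBS. Per the study's methods, cells were moved to this serum only at dosing. All arms thus come from 1 line without an added interferon, and lacked the hormones that charcoal removes only for those 24 hours.

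Interferons are secreted proteins that cells release when they sense viral nucleic acid. Type I interferons bind the receptor pair IFNAR1 and IFNAR2, whose kinases TYK2 and JAK1 phosphorylate STAT proteins, among them STAT2, which enters with IRF9 into the complex ISGF3 that binds the interferon-stimulated response element (ISRE) in promoters. Interferon gamma acts through JAK1, JAK2 and STAT dimers, which bind the gamma-activated site (GAS). EZH2 is the methyltransferase of Polycomb repressive complex 2 and places H3K27me3, a histone mark of silenced genes, so genes that carry the mark can rise when EZH2 is inhibited. The comparison of the arms asks how this gene class behaved under each inhibitor and under both.

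The total count was 14133755 to 22276417 per library. The 10 prostate luminal markers, among them KLK2 and KLK3, summed to 4180 to 4330 CPM (counts scaled to a library total of 1000000) in DMSO. In the combination their sum was 9200 to 9400 CPM. The markers did not all move together, as 8 of the 10 rose and 2 fell from DMSO to the combination by edgeR's test. Mean HOXB13 went from 424 to 294 CPM and mean EPCAM from 127 to 104 CPM, each combination library lying below each DMSO library. The 9 leukocyte markers summed to no more than 2.1 CPM in any library, with 3 or 4 of the 9 at a count of 0 throughout each arm and PTPRC (CD45), which all leukocytes carry, at 20 counts or fewer in each library. The 7 stromal and endothelial markers summed to 7.86 to 11.5 CPM in DMSO and 22.4 to 24.9 CPM in EZH2i, of which COL1A1 made up 16.8 ± 1.42 and VWF 5.96 ± 0.467 CPM (SD, n = 3) in EZH2i, and their part in the values below was not tested. The 3 libraries of an arm came from plates seeded in parallel from 1 line, so p-values measure only the spread between such plates. In bulk RNA, fewer cells that express a gene and less of its RNA per cell cannot be told apart.

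Levels differed widely among the 36 genes. Of these, 29 had at least 1 count in all 12 libraries, and 26 passed edgeR's filter on low counts and were tested. In DMSO, per kilobase of gene length, ISG15, a ubiquitin-like modifier, was highest at 34.1 ± 4.65 CPM per kb (SD, n = 3). IFITM3, which blocks virus entry in endosomes, followed at 19.0 ± 1.23 and USP18, which removes ISG15 from proteins, at 9.74 ± 0.469 CPM per kb. SAMHD1, which depletes the cell of nucleotides, stood at 6.36 ± 0.458 and IFITM2, a relative of IFITM3, at 5.81 ± 0.764 CPM per kb, and this pair did not differ beyond their spread. OAS3, IFI6, IRF7 and BST2 lay between 4.52 and 5.04 CPM per kb in DMSO, also within their spread of one another. At the other end, IFI44L and XAF1 had no counts in DMSO, and OAS2, MX2, TRIM22 and RSAD2 lay between 0.00255 and 0.0214 CPM per kb. IFIT1, IFIT2, IFIT3, OASL and IFI44 were also low, between 0.0461 and 0.144 CPM per kb in DMSO. Genes known to respond to the same interferons thus stood at both ends of the range in vehicle-treated cells.

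The 10 genes that were not tested were IFIT3, IFITM1, MX2, OAS2, RSAD2, TRIM22, IFI27, IFI44L, XAF1 and IRF9. IFI44L, OAS2 and XAF1 had at most 4 counts in any library. IRF9, the DNA-binding subunit of ISGF3, had 17, 17 and 12 counts in DMSO, 2, 8 and 8 with AKTi, 7, 6 and 9 with EZH2i and 11, 3 and 3 with both, so that every treated library lay below every DMSO library. TRIM22, an antiviral ubiquitin ligase, had 1, 0 and 2 counts in DMSO and 24, 8 and 8 in the combination. RSAD2 (viperin) had 1, 2 and 2 counts in DMSO, 3, 3 and 13 in EZH2i and 10, 14 and 6 in the combination, with all combination libraries above all DMSO libraries. IFITM1 had 9, 10 and 8 counts in DMSO and 1, 2 and 5 in the combination. Its gene model (chr11:313506-315272, hg38, plus strand) lies inside that of IFITM2 (chr11:307631-315272, plus strand), so how reads were divided between them is uncertain.

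Among the 26 tested genes, 21 reached the filter's minimum in every DMSO library. In the other 5, IFIT1, IFIT2, OAS1, OASL and IFI44, all 3 libraries reached it only in EZH2i, or in EZH2i and the combination. Single DMSO libraries could still reach it, as with 18 and 17 counts of OAS1 in DMSO A and C. Below, an arm is said to reach the minimum when all its libraries do. A gene that entered the test only through the arm where it was high was favored to differ. The rises of these 5 are thus given as values and not as support for a rise of the class.

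**Figure D1:**
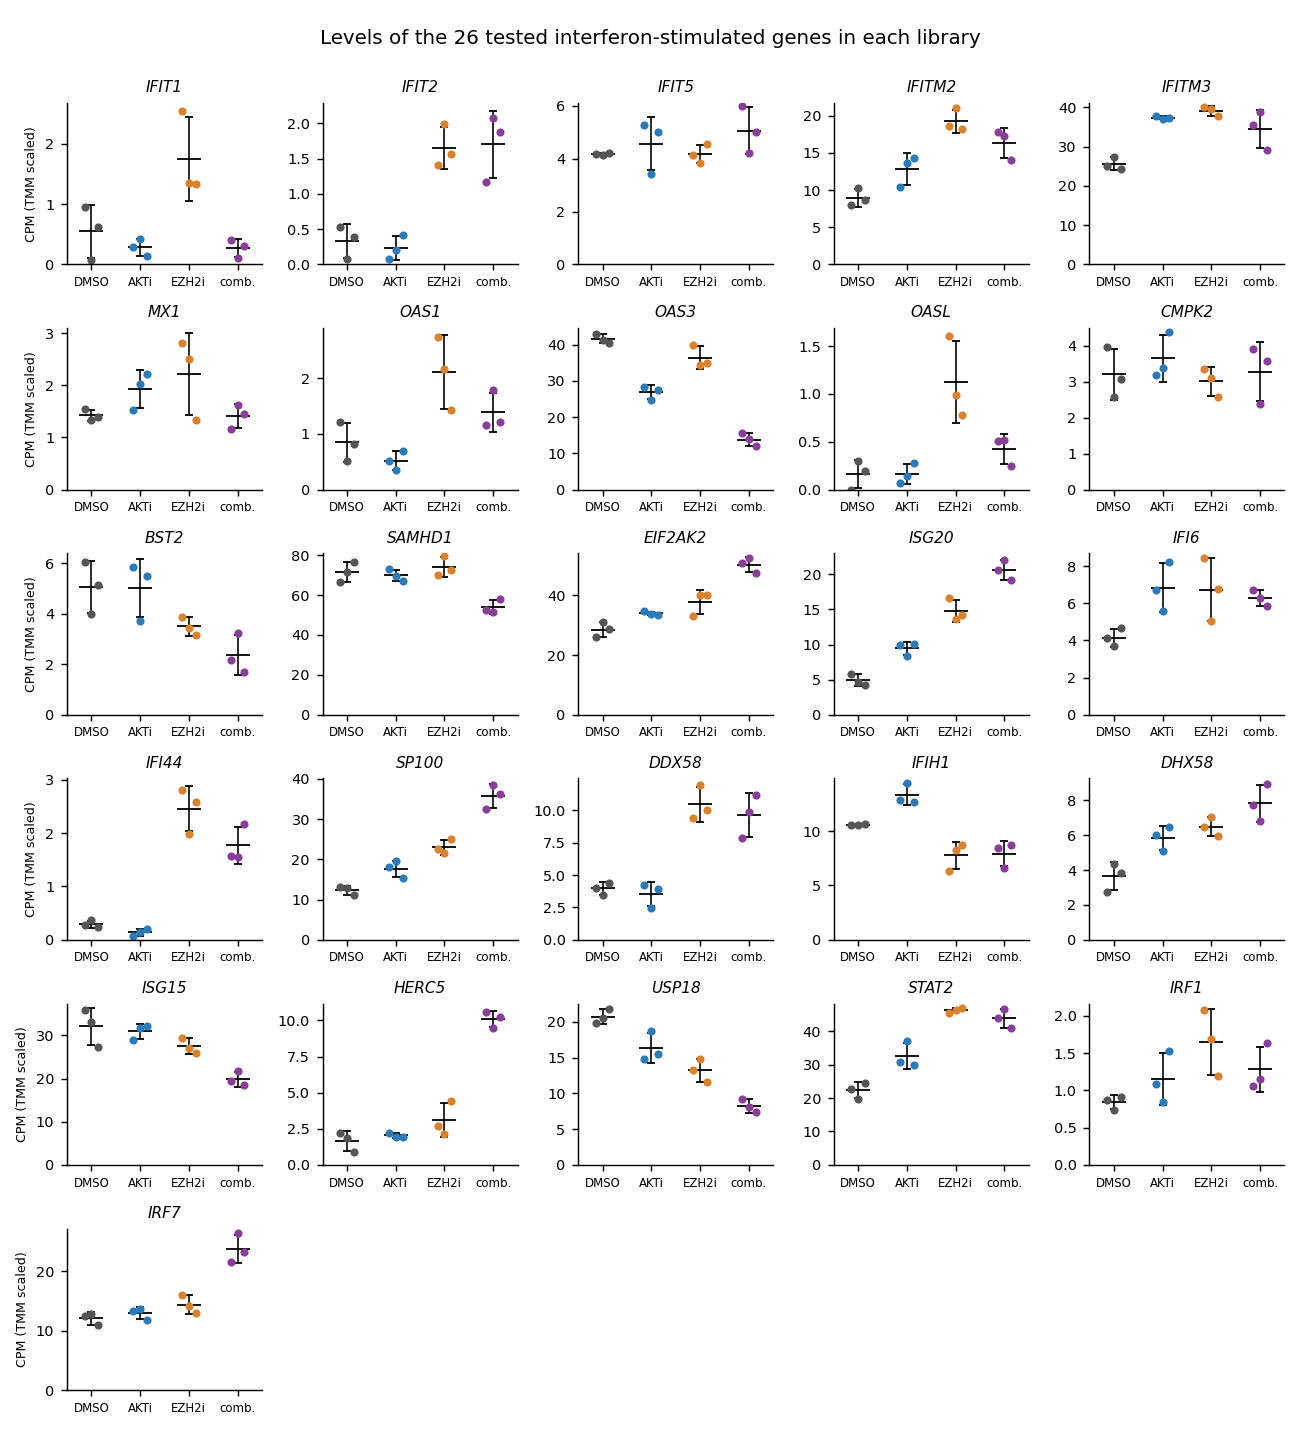
Level of each of the 26 tested genes in CPM after TMM scaling (vertical axis, linear from 0) in the 12 libraries by arm (horizontal axis). Points are libraries A, B and C of an arm from left to right, and the bar and whiskers are the mean and SD of the 3 libraries. IFI44, IFIT2 and DDX58 stood high in both arms with tazemetostat, OAS3 and USP18 had their lowest levels in the combination, and HERC5 and IRF7 stood apart in the combination.

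Promoter stretches of 6 of these genes show the sites that interferon factors read, and are given because members with such a site moved both ways. The stretches are the 150 bases before a RefSeq start site (GRCh38.p14), 5′ to 3′ on the gene's strand. Capitals mark the ISRE core, spelled GAAANNGAAA on either strand, and overlapping matches are joined. IFI44 and HERC5, whose levels rose with EZH2i, had 1 and 3 matches, IFIT1, which rose with EZH2i alone, had 2, and OAS3 and ISG15, which fell in the combination, had 2 each. STAT2, which rose, had none in this stretch.
IFI44 (chr1:78649639-78649788, plus strand): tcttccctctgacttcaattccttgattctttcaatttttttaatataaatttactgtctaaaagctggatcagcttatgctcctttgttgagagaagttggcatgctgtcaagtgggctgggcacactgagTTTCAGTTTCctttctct
IFIT1 (chr10:89392473-89392622, plus strand): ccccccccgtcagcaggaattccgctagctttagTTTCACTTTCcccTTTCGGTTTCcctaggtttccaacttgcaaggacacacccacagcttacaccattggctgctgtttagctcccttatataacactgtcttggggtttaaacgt
HERC5 (chr4:88456969-88457118, plus strand): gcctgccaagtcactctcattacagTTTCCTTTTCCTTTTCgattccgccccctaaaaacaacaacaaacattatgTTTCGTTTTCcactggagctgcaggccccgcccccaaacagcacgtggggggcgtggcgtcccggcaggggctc
OAS3 (chr12:112938324-112938473, plus strand): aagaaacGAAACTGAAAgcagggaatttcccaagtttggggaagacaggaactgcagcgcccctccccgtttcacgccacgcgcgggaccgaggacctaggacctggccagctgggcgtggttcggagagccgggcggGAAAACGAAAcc
ISG15 (chr1:1013347-1013496, plus strand): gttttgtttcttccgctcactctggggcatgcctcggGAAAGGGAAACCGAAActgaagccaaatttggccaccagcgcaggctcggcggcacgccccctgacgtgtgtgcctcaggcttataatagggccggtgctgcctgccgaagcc
STAT2 (chr12:56360108-56360257, minus strand): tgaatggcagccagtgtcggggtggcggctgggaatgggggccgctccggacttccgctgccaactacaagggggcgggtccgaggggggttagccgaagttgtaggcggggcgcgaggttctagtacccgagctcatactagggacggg

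Over windows of 250 bases before to 50 after each start, an ISRE core was found in 3.57% of all 35116 windows and for 4.38% of 27305 genes with a window, against 18 of the 27 members that had one (66.7%). The GAS palindrome, spelled TTCNNNGAA, which reads the same on both strands, was found for 9.38% of all genes and for 7 of 27 members (25.9%). IFIT2, IFITM2, MX2, OAS2, OASL, DHX58, IRF7, USP18 and TRIM22 had no window. Of the tested members with a window but no ISRE core, DDX58, STAT2, SP100, OAS1 and IRF1 were higher with EZH2i. CMPK2 and SAMHD1 did not pass with EZH2i, and SAMHD1 was lower in the combination than in DMSO. These counts describe the spelling of the windows, which the genes' membership in an interferon-responsive class makes likely, and say nothing of binding.

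**Figure D2:**
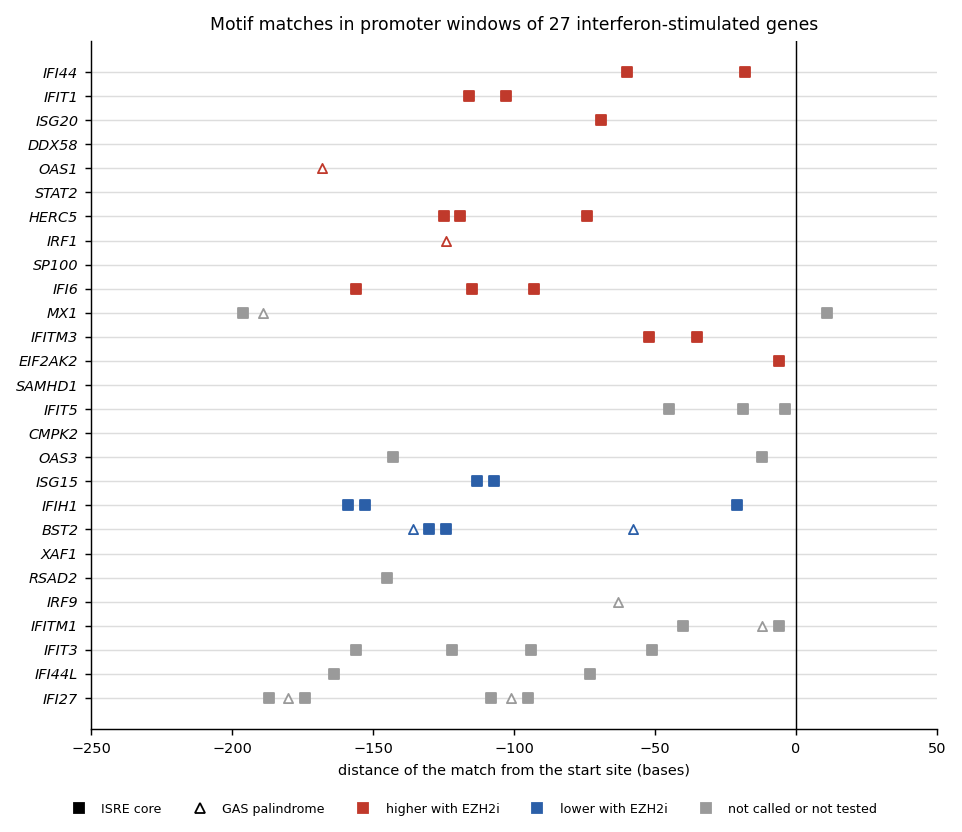
Distance of each motif match from the start site in bases (horizontal axis, 0 is the start and negative values lie before it) for the 27 members with a window (vertical axis, ordered by the log2 fold change with EZH2i, untested genes at the bottom). Filled squares are ISRE cores and open triangles GAS palindromes, red and blue mark genes higher and lower with EZH2i, and a gene with several start sites shows a match once for each. ISRE cores occur in red, blue and gray rows, and none is shown for DDX58, STAT2, SP100, OAS1, IRF1, SAMHD1, CMPK2, IRF9 or XAF1.

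More of these genes were higher than lower with EZH2 inhibition, also among those that reached the count minimum in DMSO. By edgeR's quasi-likelihood test with Benjamini-Hochberg adjustment over 16646 genes, 16 of the 26 tested genes were higher in EZH2i than in DMSO (32.6% of all tested genes were) and 4 were lower (31.5% of all). The median log2 fold change was 0.75 over the 26 and 0.03 over all tested genes. Among the 21 that reached the minimum in every DMSO library, 11 were higher and 4 lower, with a median of 0.61. Scaled by library size only or by the upper quartile, which moves the median of all genes by 0.14 and 0.12 on the log2 scale, the split of the 26 was 19 higher and 1 lower.

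Of the 17 tested effectors, 11 rose and 1 fell with EZH2i, and of the 12 at the minimum in every DMSO library 6 rose and 1 fell. IFI44, an interferon-inducible protein of uncertain biochemical role (chr1:78649796-78664078, hg38), had 4, 5 and 5 counts in DMSO and 42, 34 and 56 in EZH2i, which is 0.269, 0.369 and 0.24 against 2.81, 1.99 and 2.57 CPM. Every EZH2i library was far above every DMSO library, with a log2 fold change of 3.07 ± 0.44 (SE, adjusted p = 1.33e-07). OASL, a relative of the oligoadenylate synthetases that aids DDX58, had 0, 4 and 4 counts in DMSO and 24, 17 and 17 in EZH2i (adjusted p = 0.000412), too few in DMSO for a fold. IFIT2 and IFIT1, whose proteins bind viral RNA and hinder its translation, lie in 1 gene cluster on chromosome 10. IFIT2 had 0.538, 0.0738 and 0.384 CPM in DMSO and 1.41, 1.99 and 1.56 CPM in EZH2i, a log2 fold change of 2.25 ± 0.50 (adjusted p = 0.000171). IFIT1 had 0.942, 0.0738 and 0.623 CPM in DMSO and 2.54, 1.34 and 1.33 CPM in EZH2i, 1.60 ± 0.51 on the log2 scale (adjusted p = 0.00662). DMSO B held 1 count of each gene, below the other DMSO libraries, and every EZH2i library was above every DMSO library. Without DMSO B the IFIT1 value was 1.10 (adjusted p = 0.0716), and without EZH2i A 1.22 (adjusted p = 0.0719). IFIT5, from the same cluster, stayed at 4.17, 4.13 and 4.22 CPM in DMSO and 4.15, 3.86 and 4.55 CPM in EZH2i and did not pass the test (0.01 ± 0.20, adjusted p = 0.977).

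ISG20, an exonuclease that degrades RNA, rose from 5.86, 4.72 and 4.17 CPM in DMSO to 16.6, 13.7 and 14.2 CPM in EZH2i, a 3.03-fold difference with no overlap of libraries (log2 1.60 ± 0.14, adjusted p = 2.44e-12). The oligoadenylate synthetases make a second messenger that sets off RNA decay, and the 3 genes OAS1, OAS3 and OAS2 follow each other on chromosome 12 between 112906777 and 113011723. OAS1 had 1.21, 0.516 and 0.815 CPM in DMSO and 2.75, 2.16 and 1.42 CPM in EZH2i (log2 1.28 ± 0.40, adjusted p = 0.00503). OAS3 stood at 5.04 ± 0.15 CPM per kb in DMSO against 0.171 ± 0.0705 for OAS1, and had 43.0, 41.2 and 40.6 CPM in DMSO and 40.0, 34.2 and 34.8 CPM in EZH2i (-0.20 ± 0.09, adjusted p = 0.0522), all EZH2i libraries being lower than all DMSO libraries but short of the threshold. OAS1 and OAS3, neighbors in 1 cluster, had estimates of opposite sign. As OAS1 entered the test through the arms with tazemetostat and OAS3 was not called, no contrast is drawn from this.

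IFITM2 rose from 7.94, 10.2 and 8.68 CPM to 18.6, 21.0 and 18.2 CPM (log2 1.11 ± 0.13, adjusted p = 2.59e-09) and IFITM3 by 0.61 ± 0.09 (adjusted p = 1.8e-07), with each EZH2i library above each DMSO library in both. The 2 are near-identical paralogs, so the division of reads between them and IFITM1 is uncertain. SP100, a scaffold of nuclear bodies that silence viral genomes, rose from 13.1, 12.9 and 11.1 CPM to 22.5, 21.5 and 25.0 CPM (log2 0.91 ± 0.11, adjusted p = 3.66e-09). IFI6, a mitochondrial and endoplasmic reticulum protein, and EIF2AK2 (PKR), the kinase that halts translation on double-stranded RNA, rose less, by 0.68 ± 0.19 (adjusted p = 0.00215) and 0.41 ± 0.09 (adjusted p = 6.94e-05). Of the annotated exon bases of IFI6, 23.1% are shared with the gene LINC02574 on the same strand. BST2 (tetherin), which holds budding virus at the cell surface, was the 1 effector that fell, from 6.06, 3.98 and 5.13 CPM in DMSO to 3.88, 3.45 and 3.17 CPM in EZH2i (log2 -0.54 ± 0.23, adjusted p = 0.0378). Every EZH2i library was below every DMSO library, yet the call was lost without any 1 of DMSO A, DMSO C, EZH2i B or EZH2i C (adjusted p = 0.0715 to 0.176) and by library size only (-0.40, adjusted p = 0.129). CMPK2, SAMHD1 and MX1 also did not pass, with MX1, a GTPase that traps viral nucleocapsids, at 1.55, 1.33 and 1.39 CPM in DMSO and 2.81, 2.51 and 1.33 CPM in EZH2i.

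The 3 cytoplasmic RNA sensors split. DDX58 (RIG-I, now named RIGI), which detects RNA with a 5′ triphosphate, had 4.04, 3.47 and 4.41 CPM in DMSO and 9.38, 11.98 and 10.0 CPM in EZH2i, 2.61-fold higher (log2 1.38 ± 0.18, adjusted p = 2.15e-08). DHX58 (LGP2), which modulates the other sensors, rose from 2.76, 4.35 and 3.84 CPM to 6.5, 7.01 and 5.97 CPM (log2 0.83 ± 0.19, adjusted p = 0.0002). IFIH1 (MDA5), the detector of long double-stranded RNA, fell from 10.6, 10.6 and 10.7 CPM to 6.36, 8.24 and 8.73 CPM (log2 -0.44 ± 0.14, adjusted p = 0.00807). No library of the EZH2i arm overlapped the DMSO arm for any of the 3, although 43.2% of the annotated exon bases of DDX58 are shared with another gene model. The fall of IFIH1 did not pass by library size only (-0.29, adjusted p = 0.075) or by upper quartile (-0.32, adjusted p = 0.0523).

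The ISG15 system moved in opposing directions as well. HERC5, the main ligase that attaches ISG15, had 2.22, 1.84 and 0.863 CPM in DMSO and 2.68, 2.16 and 4.41 CPM in EZH2i (log2 0.99 ± 0.28, adjusted p = 0.00233). These libraries overlapped, and the call was lost without DMSO C (0.62, adjusted p = 0.0548) or without EZH2i C (0.57, adjusted p = 0.0996). USP18, which also blocks the type I receptor, fell from 19.9, 20.5 and 21.8 CPM to 13.3, 14.8 and 11.5 CPM with no overlap (log2 -0.66 ± 0.12, adjusted p = 1.03e-05). ISG15 itself had 35.9, 33.0 and 27.3 CPM in DMSO and 29.5, 27.1 and 25.9 CPM in EZH2i. Its fall was small (-0.22 ± 0.10, adjusted p = 0.0456), its libraries overlapped, and the call was lost by library size only (-0.07, adjusted p = 0.512) and without DMSO A (-0.13, adjusted p = 0.288), EZH2i B or EZH2i C (adjusted p = 0.0866 and 0.0915).

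Of the transcription factors, STAT2, the ISGF3 subunit that activates transcription, had 22.7, 19.7 and 24.5 CPM in DMSO and 45.5, 46.4 and 46.8 CPM in EZH2i, 2.06-fold higher with no overlap (log2 1.04 ± 0.09, adjusted p = 8.33e-13). IRF1, which drives interferon-responsive promoters early, had 0.875, 0.738 and 0.911 CPM in DMSO and 2.08, 1.7 and 1.19 CPM in EZH2i (log2 0.94 ± 0.39, adjusted p = 0.0341). At these low counts, leaving out any 1 of DMSO A, B or C or EZH2i A or B ended the call of IRF1 (adjusted p = 0.059 to 0.152), and 22.9% of its annotated exon bases are shared with the antisense gene IRF1-AS1. IRF7, which amplifies interferon production, had 12.5, 12.8 and 10.9 CPM in DMSO and 16.1, 14.1 and 13 CPM in EZH2i and did not pass (log2 0.26 ± 0.12, adjusted p = 0.0609), but was called higher by library size only (0.40, adjusted p = 0.00391).

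**Figure D3:**
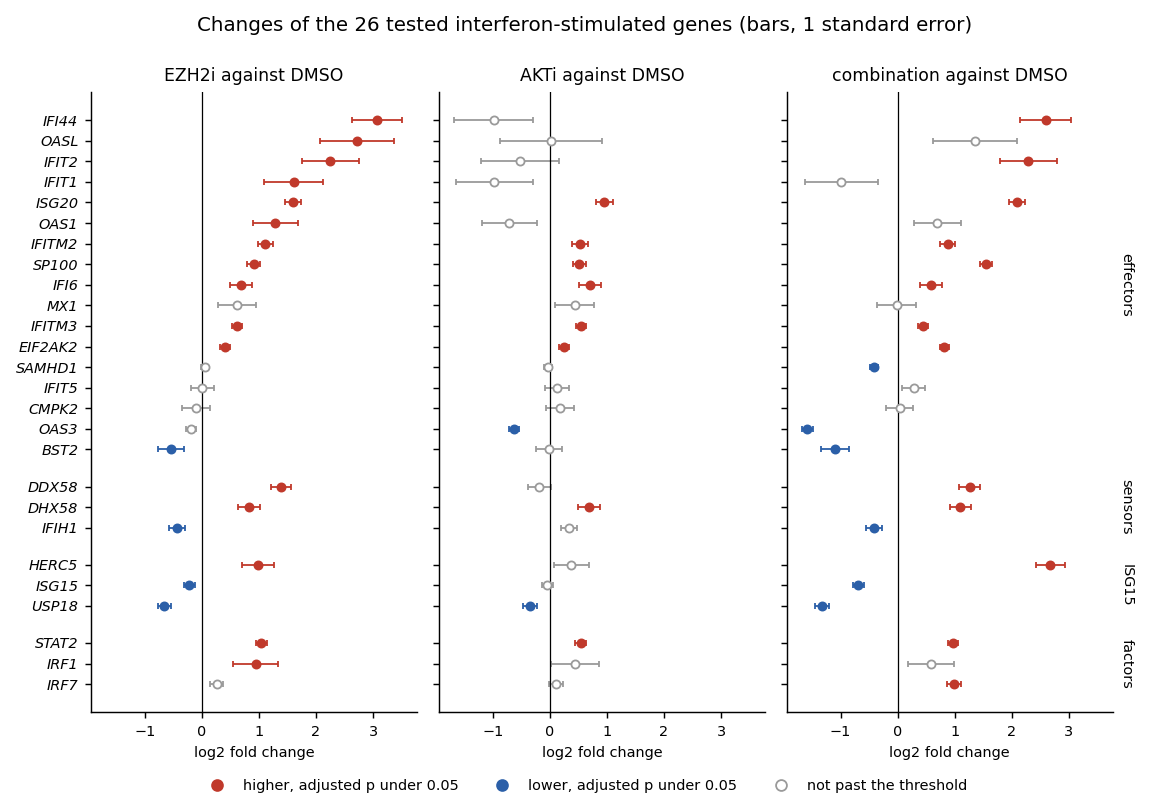
Log2 fold change against DMSO (horizontal axis) of the 26 tested genes (vertical axis, grouped by role and ordered by the change with EZH2i) for EZH2i, AKTi and the combination. Points are edgeR estimates, bars are 1 standard error, red and blue mark adjusted p-values under 0.05, and the OASL estimates rest on DMSO counts of 0, 4 and 4. IFI44, OASL and IFIT2 have the largest estimates in EZH2i and did not pass in AKTi, OAS3 is blue in AKTi and in the combination, SAMHD1 is blue in the combination, and IRF7 is red there.

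AKT inhibition alone moved fewer of these genes, with 8 higher (20.6% of all tested genes) and 2 lower (21.9% of all) than in DMSO. The AKTi arm had 24 hours of drug and the EZH2i arm 6 days more, so agent and length of exposure cannot be told apart here. The 8 were IFI6, IFITM2, IFITM3, ISG20, DHX58, EIF2AK2, STAT2 and SP100. ISG20 stood at 9.98, 8.34 and 10.0 CPM in AKTi (log2 0.95 ± 0.15, adjusted p = 2.45e-06), between DMSO and EZH2i. STAT2 had 30.9, 36.9 and 30.0 CPM (0.54 ± 0.09, adjusted p = 9.2e-06) and SP100 18.0, 19.5 and 15.4 CPM (0.52 ± 0.11, adjusted p = 0.000291). IFITM3 rose to 37.8, 36.9 and 37.4 CPM (0.55 ± 0.09, adjusted p = 4.6e-06) and DHX58 to 6.0, 5.11 and 6.46 CPM (0.68 ± 0.19, adjusted p = 0.0038), each AKTi library above each DMSO library. OAS3 fell to 28.4, 24.7 and 27.5 CPM (-0.63 ± 0.09, adjusted p = 5.95e-07) and USP18 to 14.8, 18.8 and 15.5 CPM (-0.34 ± 0.12, adjusted p = 0.0194). The 5 genes that were at the filter's minimum only with EZH2i had AKTi counts as low as in DMSO, such as 1, 2 and 3 for IFI44 and 1, 3 and 6 for IFIT2. The 2 smallest calls did not hold when 1 of several libraries was left out. EIF2AK2 (0.25 ± 0.09) lost its call without any 1 of AKTi A, B or C or DMSO A (adjusted p = 0.0616 to 0.128), and USP18 without AKTi A, AKTi C or DMSO C (adjusted p = 0.0583 to 0.104) and by library size only (adjusted p = 0.0517).

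In the combination, 13 genes were higher (38.0% of all tested genes) and 6 lower (35.2% of all) than in DMSO. Of the 21 at the minimum in every DMSO library, 11 were higher and 6 lower. The median change on the log2 scale was 0.64 over the 26 and 0.06 over all tested genes. HERC5, with the largest estimate of the 13, stood at 10.6, 9.46 and 10.2 CPM, which is 6.36-fold above DMSO (log2 2.67 ± 0.26, adjusted p = 9.14e-12). IFI44 had 1.57, 1.56 and 2.17 CPM (log2 2.59 ± 0.45) and IFIT2 1.17, 2.08 and 1.87 CPM (log2 2.29 ± 0.50), and neither passed the test against EZH2i alone. ISG20 reached 20.6, 22.1 and 19.2 CPM (log2 2.08 ± 0.14, adjusted p = 4.76e-16) and SP100 32.6, 38.5 and 36.3 CPM (log2 1.54 ± 0.11, adjusted p = 1.25e-15), above every library of the other arms. The 6 lower genes were IFIH1, ISG15, OAS3, BST2, SAMHD1 and USP18. OAS3 had 15.5, 13.9 and 11.9 CPM, 3.0-fold below DMSO (log2 -1.59 ± 0.10, adjusted p = 3.19e-17). USP18 had 9.28, 8.13 and 7.37 CPM (log2 -1.32 ± 0.13, adjusted p = 7.77e-12), ISG15 19.4, 21.7 and 18.4 CPM (log2 -0.69 ± 0.10, adjusted p = 1.12e-07) and BST2 2.18, 3.23 and 1.69 CPM (log2 -1.10 ± 0.24, adjusted p = 0.000108), with all 3 combination libraries below all 3 DMSO libraries in each. IFIH1 (-0.42 ± 0.14, adjusted p = 0.0093) lost its call by library size only (adjusted p = 0.163) and without combination B (adjusted p = 0.0746).

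Against EZH2i alone, adding AKTi gave 5 genes higher (21.1% of all tested genes) and 6 lower (25.7% of all). The 5 were ISG20, EIF2AK2, IRF7, HERC5 and SP100, and the 6 were IFIT1, ISG15, OAS3, OASL, SAMHD1 and USP18. IFIT1 and OASL reached the count minimum only in EZH2i, which favors a fall from that arm, so their falls are given as values only. Of the 21 at the minimum in every DMSO library, 5 were higher and 4 lower. HERC5 rose from 2.68, 2.16 and 4.41 to 10.6, 9.46 and 10.2 CPM (log2 1.68 ± 0.23, adjusted p = 1.03e-07) and IRF7 from 16.1, 14.1 and 13 to 21.6, 26.4 and 23.3 CPM (log2 0.73 ± 0.11, adjusted p = 1.15e-06), in both with no overlap. IFIT1 fell from 2.54, 1.34 and 1.33 to 0.406, 0.115 and 0.302 CPM (8, 2 and 5 counts, log2 -2.60 ± 0.56, adjusted p = 0.000215), back into the range of DMSO, while IFIT2 of the same cluster did not pass (0.04 ± 0.40, adjusted p = 0.951). OASL fell to 0.507, 0.519 and 0.242 CPM (log2 -1.36 ± 0.55, adjusted p = 0.0386), a call that was lost by DESeq2 (adjusted p = 0.0594) and without EZH2i A or B or any 1 combination library (adjusted p = 0.0605 to 0.188). SAMHD1 had 69.8, 79.4 and 72.8 CPM in EZH2i and 52.7, 51.6 and 58.2 CPM in the combination (log2 -0.45 ± 0.07, adjusted p = 1.19e-06).

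Measured against both single agents, the combination was above each for 5 genes (15.5% of all tested genes), ISG20, EIF2AK2, IRF7, HERC5 and SP100, and below each for 4 (19.7% of all), ISG15, OAS3, SAMHD1 and USP18. These 9 were thus at their extreme in the combination, in shares near those of all genes.

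The EZH2i effect can be measured on 2 separate sets of libraries, as EZH2i against DMSO and as the combination against AKTi. Against AKTi, the combination had 12 genes higher (32.1% of all tested genes) and 6 lower (32.1% of all). In both measurements 11 genes were higher (23.5% of all), IFIT2, IFI44, IFITM2, ISG20, OAS1, DDX58, DHX58, EIF2AK2, STAT2, HERC5 and SP100, and 4 were lower (24.5% of all), IFIH1, ISG15, BST2 and USP18. IFIT2, IFI44 and OAS1 reached the count minimum only in the EZH2i and combination arms, which favors a rise in both measurements, and without them 8 were higher. None was called in opposite directions (2.48% of all). The 11 make up 11 of the 16 higher with EZH2i alone and 11 of the 12 higher on AKTi, and the 4 make up all 4 of the lower with EZH2i alone and 4 of the 6 lower on AKTi. Of those 4, only USP18 kept its EZH2i against DMSO call under scaling by library size only and by upper quartile. DDX58 had 4.27, 2.45 and 3.89 CPM in AKTi and 7.86, 9.86 and 11.2 CPM in the combination (log2 1.44 ± 0.19, adjusted p = 2.39e-08), close to its 1.38 ± 0.18 without AKTi. IFI44 had 1, 2 and 3 counts in AKTi and 31, 27 and 36 in the combination (adjusted p = 2.48e-07), too few in AKTi for a fold. OAS1 had 0.506, 0.35 and 0.695 CPM in AKTi and 1.17, 1.79 and 1.21 CPM in the combination (log2 1.41 ± 0.45, adjusted p = 0.00696), and BST2 5.86, 3.71 and 5.49 and 2.18, 3.23 and 1.69 CPM (log2 -1.08 ± 0.24, adjusted p = 0.000197). Of the 11, 2 lost their call on AKTi when 1 of several libraries was left out. They were DHX58 (log2 0.41 ± 0.18, adjusted p = 0.0678 to 0.181 without AKTi A, AKTi B, combination A or combination C) and IFITM2 (log2 0.35 ± 0.13, adjusted p = 0.0616 to 0.303 without AKTi A, combination A or combination B).

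The difference between these 2 effects is the interaction, which was positive for 2 genes (10.7% of all tested genes) and negative for 7 (17.5% of all). HERC5 (1.31 ± 0.38, adjusted p = 0.00903) and IRF7 (0.62 ± 0.17, adjusted p = 0.00436) had a larger EZH2i effect in the presence of AKTi. IRF7 had 13.4, 13.7 and 11.8 CPM in AKTi and did not pass against DMSO there (0.11 ± 0.12, adjusted p = 0.506) or with EZH2i, but did in the combination (log2 0.99 ± 0.12, adjusted p = 1.33e-09). The 7 with a smaller or more negative EZH2i effect on AKTi were IFI6, IFITM2, IFITM3, ISG15, OAS3, STAT2 and SAMHD1. For IFI6, IFITM2, IFITM3 and STAT2, the gene was called higher with each agent alone and was not called different between the combination and EZH2i alone. IFITM3 had 37.4 ± 0.457 CPM in AKTi, 39.1 ± 1.17 CPM in EZH2i and 34.5 ± 4.9 CPM when both were given (SD, n = 3; interaction -0.73 ± 0.12, adjusted p = 2.03e-05). OAS3 showed the other form, with 41.6 ± 1.24 CPM in DMSO, 26.8 ± 1.96 CPM in AKTi, 36.4 ± 3.16 CPM in EZH2i and 13.8 ± 1.81 CPM with both agents, a fall larger than the 2 single effects added on the log2 scale (-0.76 ± 0.13, adjusted p = 2.9e-05). The interaction of HERC5 was lost without DMSO A (1.00, adjusted p = 0.0751), that of IFI6 (-0.80 ± 0.27) without AKTi C, DMSO B or EZH2i A (adjusted p = 0.0637 to 0.108) and that of ISG15 (-0.42 ± 0.14) without AKTi B, AKTi C, DMSO C or combination C (adjusted p = 0.0562 to 0.0843).

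**Figure D4:**
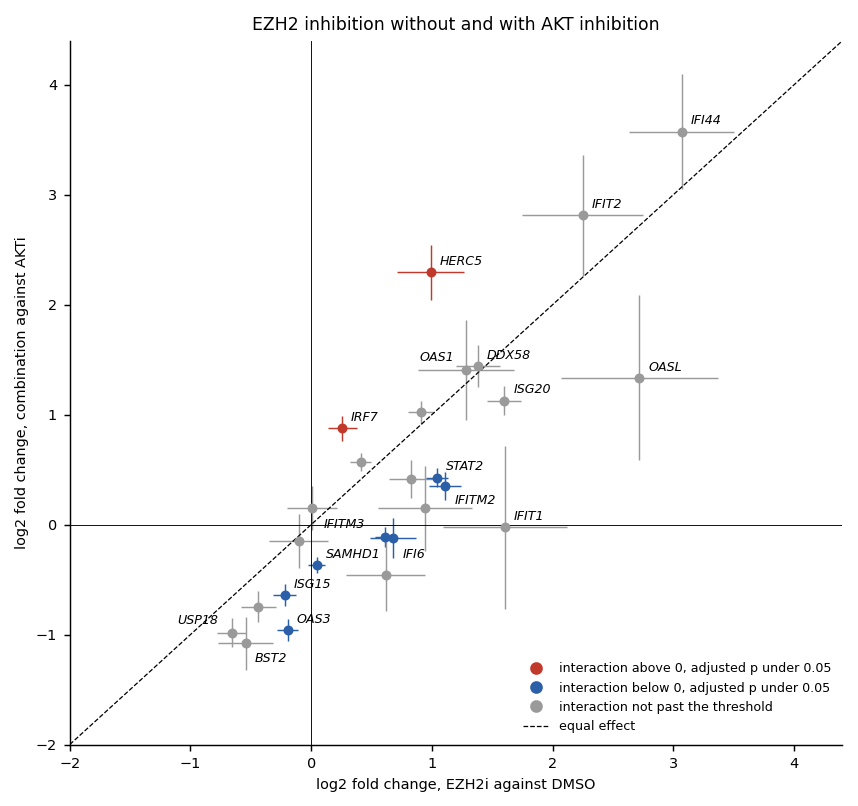
Log2 fold change of the 26 tested genes with EZH2i against DMSO (horizontal axis) and in the combination against AKTi (vertical axis), with bars of 1 standard error. The dashed line marks equal effects, red and blue points passed the interaction test above and below it, and the combination against AKTi estimate of IFI44 rests on AKTi counts of 1, 2 and 3. DDX58 and OAS1 lie on the line, HERC5 and IRF7 above it, and the 7 blue points, from IFITM2 at the right to ISG15 and OAS3 at the left, below it.

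The genes around this class, from the ligand to the promoter, were read from lists written for that purpose. Of 10 interferon genes, including IFNA1, IFNB1, IFNG and IFNL1, the libraries of DMSO, AKTi, EZH2i and combination held 3, 0, 1 and 4 counts in all, and none was tested. Of 10 genes for receptors, kinases and STATs, 8 were tested, and 4 rose and none fell with EZH2i, against 32.6% and 31.5% of all tested genes. IFNGR2, the signaling chain of the interferon gamma receptor, rose by 0.98 ± 0.10 (adjusted p = 1.66e-10), STAT3 by 0.96 ± 0.05 (adjusted p = 4.48e-18), JAK1 by 0.79 ± 0.18 (adjusted p = 0.000303) and JAK2 by 0.57 ± 0.12 (adjusted p = 5.07e-05) on the log2 scale. JAK1, the kinase shared by all interferon receptors, had 2.56, 4.43 and 4.51 CPM in DMSO, 3.62, 3.57 and 4.1 with AKTi, 6.56, 7.19 and 6.29 with EZH2i and 10.4, 12.7 and 11.4 with both, where it was 2.97-fold above DMSO (adjusted p = 4.55e-10). IFNAR1 (log2 0.09 ± 0.06), IFNAR2 (-0.55 ± 0.44) and TYK2 (0.07 ± 0.08) did not pass with EZH2i.

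Of 17 genes of nucleic acid sensing, 14 were tested, 8 rose and 4 fell with EZH2i, against 32.6% and 31.5% of all tested genes. IFI16, STING1 and TLR3 reached the count minimum only in EZH2i, the combination or both and so were favored to differ. Of the 11 others, 5 rose and 4 fell. IFI16, a sensor of DNA, had 1, 6 and 2 counts in DMSO and 11, 25 and 25 in EZH2i (adjusted p = 0.000468), and TLR3, the endosomal receptor for double-stranded RNA, 1, 2 and 4 and 12, 10 and 8 counts (adjusted p = 0.0168), a call lost without DMSO A (adjusted p = 0.0709) or EZH2i A (adjusted p = 0.0739). STING1, the adaptor of cytoplasmic DNA sensing, had 4, 5 and 8 counts in DMSO and 16, 31 and 22 in EZH2i (log2 1.89 ± 0.51, adjusted p = 0.00152), but CGAS, the enzyme that feeds it, had at most 3 counts in any library. MAVS, the adaptor of DDX58 and IFIH1, rose by 0.42 ± 0.06 (adjusted p = 2.77e-08). Further along, IRF3, the factor that starts interferon transcription, fell from 46.8, 47.6 and 47.6 to 34.5, 27.4 and 27.8 CPM (log2 -0.67 ± 0.09, adjusted p = 1.95e-08) and had 23.1, 21.9 and 19.6 CPM in the combination (log2 -1.13 ± 0.09 against DMSO, adjusted p = 5.26e-14). Its kinase TBK1 fell by 0.27 with EZH2i (adjusted p = 0.00735), a call lost by library size only (adjusted p = 0.205) and without DMSO C or EZH2i B (adjusted p = 0.0656 and 0.0514).

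Of 7 genes that restrain the pathway, 5 were tested, and 3 rose and 2 fell with EZH2i, against 32.6% and 31.5% of all tested genes. The phosphatase PTPN6 (SHP-1) rose by 0.89 ± 0.07 (adjusted p = 5.26e-13) and the repressor IRF2 by 0.75 ± 0.12 (adjusted p = 7.89e-07), while the phosphatases PTPN2 (-0.62 ± 0.08, adjusted p = 4.25e-08) and PTPN11 (-0.51 ± 0.06, adjusted p = 9.7e-10) fell. Of 37 further interferon-stimulated genes, 28 were tested, and 22 rose and 2 fell with EZH2i. Of these 28, 7 were below the count minimum in at least 1 DMSO library (GBP3, SAMD9, PLSCR1, DDX60, DDX60L, UBA7 and NMI) and passed through treated arms. Of the 21 others 15 rose and 2 fell (32.6% and 31.5% of all tested genes), with a median change of 0.76 on the log2 scale. Under both agents 15 of the 21 were higher and 3 lower than in DMSO (38.0% and 35.2% of all), and with AKTi 9 were higher and 2 lower (20.6% and 21.9% of all). The guanylate-binding proteins GBP2 and GBP3, GTPases that attack intracellular pathogens, are named here for the size of their changes. GBP2 rose from 2.49, 2.88 and 2.68 CPM in DMSO to 15.3, 16.1 and 19.9 CPM in EZH2i, 6.4-fold (log2 2.68 ± 0.17, adjusted p = 2.49e-16), and GBP3 from 3, 1 and 6 to 17, 41 and 39 counts (log2 3.11 ± 0.54, adjusted p = 5.14e-06). UBA7, the enzyme that activates ISG15 for conjugation, had 5, 0 and 5 counts in DMSO and 21, 23 and 14 in EZH2i (log2 2.42 ± 0.59, adjusted p = 0.000494), and NMI, a partner of STAT proteins, 0, 0 and 0 and 3, 7 and 14 counts (adjusted p = 0.000157) and 26, 17 and 19 in the combination.

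**Figure D5:**
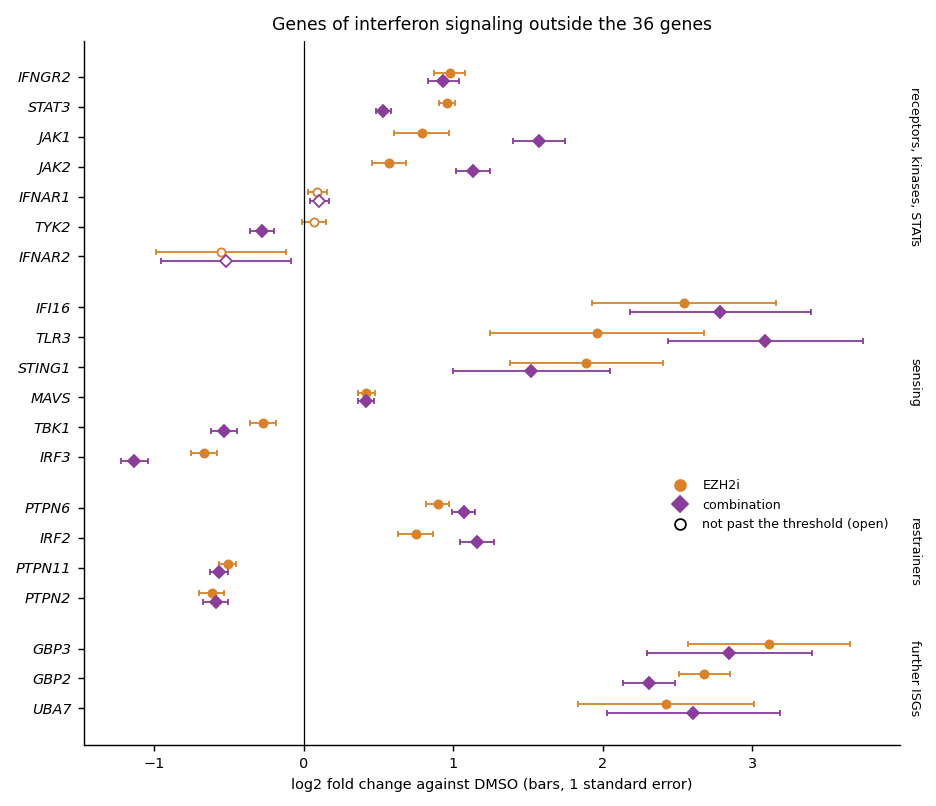
Log2 fold change against DMSO (horizontal axis) with EZH2i (circles) and in the combination (diamonds) of 20 named genes of interferon signaling outside the 36 (vertical axis, by list), with bars of 1 standard error. Filled points have adjusted p-values under 0.05 by edgeR, and the TLR3 and IFI16 estimates rest on 1 to 6 counts per DMSO library. JAK1 and JAK2 lie farther right in the combination than with EZH2i, and IRF3 lies farther left there.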

How the data were processed

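PolyA RNA of 12 libraries was sequenced, 3 per arm. Per the study's methods, the authors aligned reads to hg38 with STAR, counted reads per gene with HTSeq and tested with DESeq2, while versions, gene annotation and strand setting are not given in the sources used here. Sequencing was done at 1 of 2 sites, which the labels do not assign to libraries. The deposited raw counts (whole reads per gene, not normalized) were used for all results. The authors also deposited a normalized signal, which for the 36 genes equals those counts divided by 1 size factor per library, and it was used for that check alone. Gene positions and lengths come from the deposited table. Promoter windows and motif counts come from RefSeq (GRCh38.p14) and shared exon bases from a GENCODE annotation of hg38, which may not be the one the authors used.

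The 36 genes, the other lists and the questions were chosen with earlier results of these data known, and some genes of those other lists are not reported here. Counts were fitted with edgeR 4.0.16 (R 4.3.3; TMM scaling; filterByExpr with a minimum count of 10 and a minimum total of 15; quasi-likelihood test, 1 coefficient per arm, all 12 libraries), with Benjamini-Hochberg adjustment over 16646 of 58735 genes and a threshold of 0.05. Standard errors are the log2 fold change divided by the square root of the F statistic. Levels are CPM on TMM-scaled library sizes, with 14133755 to 22276417 counts per library, and counting error limits genes with few reads. The interaction is the log2 fold change of combination against AKTi minus that of EZH2i against DMSO. The fit was tested on simulated data.

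Values per library are given for up to 16 tested members with the largest absolute log2 fold change in EZH2i against DMSO or combination against AKTi, and for pathway genes by list and size of change or as parts of the receptor and sensor chains. Values of DHX58, IFIH1, ISG15, IFIT5, IFITM3, MX1 and SAMHD1 were added after they were seen, to complete small groups. Members at 3 counts or fewer on average in an arm are given as counts. Alternatives were DESeq2 1.42.0, RLE, library-size and upper-quartile scaling, looser and stricter count filters, only the libraries compared, the replicate letter as a block and leaving out each library in turn. Tables were handled with Python 3.11.15 and pandas 2.3.3 and drawn with matplotlib 3.10.9.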

Additional observations from a re-analysis of the deposited data

Results flagged for a closer look

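The effect of EZH2i differed between cells without and with AKTi for 9 members by edgeR's interaction test. The log2 differences, as the effect with AKTi minus the effect without, were -0.80 for IFI6, -0.76 for IFITM2, -0.73 for IFITM3, -0.42 for ISG15, -0.76 for OAS3, -0.62 for STAT2 and -0.41 for SAMHD1. They were 0.62 for IRF7 and 1.31 for HERC5, the 2 members with a larger effect with AKTi.

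Among the surrounding genes the same test was positive for 3 and negative for 3 of 8 receptors, kinases and STATs, for 0 and 6 of 14 sensing genes, for 1 and 1 of 5 restrainers and for 3 and 7 of 28 further interferon-stimulated genes, against 10.7% positive and 17.5% negative of all tested genes. Of the genes named in the report, 9 were among them. The difference was -0.75 for IFNGR2, -0.56 for STAT3 and -0.40 for TYK2, against 0.82 for JAK1 and 0.49 for JAK2. JAK1 lost this call without DMSO C (adjusted p = 0.0786). For the adaptor MAVS it was -0.26, for IRF3 -0.41, for the phosphatase PTPN6 -0.42 and for PTPN2 0.32. IRF3 lost the call without AKTi C (adjusted p = 0.0793), and JAK2 and MAVS each lost it when some single libraries were left out. PTPN2 lost it without AKTi A or C, DMSO A or B, EZH2i A or C or any 1 combination library (adjusted p = 0.0501 to 0.133). With genes of at least 1 count kept, PTPN2 lost it too (adjusted p = 0.138).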

How the results depend on the processing

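Of the called or printed log2 fold changes, none reversed under any alternative. With DESeq2, 151 of them stayed on their side of the threshold and 2 lost their call, and under scaling by library size alone, and likewise by upper quartile, 144 stayed, 8 lost and 1 gained a call. Counting genes with at least 1 count in total lost 8 calls. Leaving out 1 library at a time left 951 on their side, lost 73 calls and gained 2. The number of members lower with EZH2i than with DMSO was 1 by library size only and by upper quartile, against 4, and ranged from 2 to 5 when 1 library was left out, with 2 without DMSO A, EZH2i B or EZH2i C. The number lower with AKTi was 1 by library size only and by upper quartile, against 2, and 1 to 2 when 1 library was left out, with 1 without AKTi A, AKTi C or DMSO C. Positive interactions numbered 1 to 2 when 1 library was left out, with 1 without DMSO A. Against TMM, scaling by library size alone or by upper quartile moved the median of all genes in the combination by 0.20 and 0.18 against DMSO and by 0.14 and 0.13 against AKTi. Same-letter libraries of different arms had correlations of -0.058 to 0.069 in their deviations from the arm means. No pairing by letter was thus seen, which does not exclude one. With the replicate letter as a block, members lower with EZH2i numbered 5, OAS3 being added (adjusted p = 0.0412), and no other count of members changed. Depth limits the 10 untested members and the 5 that reached the count minimum only with EZH2i. With genes of at least 1 count kept, TRIM22 (3.43, adjusted p = 0.000877) and RSAD2 (2.34, adjusted p = 0.0257) passed as higher and IRF9 (-1.65, adjusted p = 0.0222) and IFITM1 (-1.88, adjusted p = 0.0399) as lower in the combination than in DMSO, on the log2 scale.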

Other observations

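Among the 37 further interferon-stimulated genes, 3 were singled out after their values were seen. LAMP3, a lysosomal membrane protein of mature dendritic cells, had 12, 19 and 32 counts in DMSO, 11, 16 and 7 with AKTi, 13, 12 and 25 with EZH2i and 183, 131 and 144 with both. Its combination libraries stood far above all others (log2 3.20 ± 0.27 against EZH2i, adjusted p = 2.32e-12 by edgeR; interaction 3.85 ± 0.45, adjusted p = 1.93e-08), while EZH2i against DMSO did not pass (-0.46 ± 0.33, adjusted p = 0.235). APOL6, an apolipoprotein L family gene, had 2.09, 2.36 and 3.07 CPM in DMSO, 1.74, 2.59 and 2.08 with AKTi, 6.5, 7.42 and 6.29 with EZH2i and 14.4, 12.9 and 16.2 with both (log2 2.50 ± 0.18 against DMSO, adjusted p = 3.39e-15). PNPT1, a mitochondrial RNA-degrading enzyme, moved the other way, with 95.6, 92.0 and 97.2 CPM in DMSO, 58.4, 55.7 and 51.1 with AKTi, 30.7, 35.0 and 32.5 with EZH2i and 20.02, 19.5 and 19.4 with both (log2 -2.27 ± 0.08 against DMSO, adjusted p = 2.97e-25).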
